A study of Mus musculus with 13 samples.

Results

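Expression of 6 genes, grouped here as germline genes, was followed in mouse embryonic fibroblasts depleted of Setdb1. This enzyme trimethylates lysine 9 of histone H3. Of the 6, Rhox5 is a gene of Sertoli cells, epididymis and placenta, and the Xlr3 genes belong to a lymphocyte-regulated family. The genes were Tex11, Tex15, Rbm44, Xlr3a, Xlr3b and Rhox5, taken by name from a table of 25965 gene rows. They were chosen by their log2 RPM values (RPM, reads per 1000000 reads of the library), which were higher with Setdb1 hairpins than with control hairpins, so their differences between Setdb1 and control hairpins are given as a description and carry no test. Of the members, 4 lie on chromosome X and 2 on autosomes. Tex11 and Rbm44 passed the filter on low values, at least 1 RPM in at least 3 hairpin libraries, only through the Setdb1 groups, and no control library reached 1 RPM for either. Rhox5 passed through libraries with 5-aza, of which 3 were control libraries. Tex15, Xlr3a and Xlr3b reached 1 RPM in all 12 hairpin libraries.

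The 12 hairpin libraries were poly(A) RNA from primary female XXist∆A/XPGK fibroblasts of E13.5 embryos, in which the Xist deletion makes the PGK X the inactive one in every cell. A retroviral hairpin was introduced, cells were selected with puromycin, and RNA was taken on day 7. The 4 groups of 3 libraries were control hairpin, control hairpin with 5-azacytidine (5-aza, which inhibits the maintenance of DNA methylation, given for 24 h from day 3), Setdb1 hairpin, and Setdb1 hairpin with 5-aza. The libraries lettered A and B had the non-silencing hairpin among controls and shSetdb1.4 among Setdb1 hairpins, while the remaining library of a group had the luciferase hairpin or shSetdb1.6. Per the study's description, Setdb1 hairpins were put into cells heterozygous for a Setdb1 gene trap and the non-silencing hairpin into wild-type cells, so hairpin and genotype cannot be told apart here. The genotype of the luciferase cells and the embryo behind each library are not given in the sources used here, and p-values therefore measure the spread between these libraries, which may be technical. The dose of 5-aza is not stated for these libraries.

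Germline genes are held silent in most somatic cells by layers that include DNA methylation at CpG-containing promoters and histone H3 lysine 9 methylation. Setdb1 is recruited to many of its targets by KRAB zinc finger proteins through Trim28, and it silences endogenous retroviruses and a set of germline genes. Tex11 and Tex15 act in meiosis of male germ cells, and Tex15 also takes part in silencing transposons in fetal germ cells. Rbm44 encodes an RNA-binding protein of germ cell intercellular bridges. Xlr3a and Xlr3b belong to an X-linked lymphocyte-regulated family related to the synaptonemal complex protein Sycp3. Rhox5 is the founding gene of the reproductive homeobox cluster and is known as a gene that loss of DNA methylation activates in somatic cells.

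The hairpin guides and the promoters of members are shown because the results turn on the enzyme that was depleted and on 5-aza. This drug inhibits the maintenance of DNA methylation at CpG. In the guide strands below, read from the study's oligonucleotide list, capitals mark the seed (bases 2 to 8).
shSetdb1.4: tTTGTCTGcaaagtcatctgtc
shSetdb1.6: tAGATCTTgagaactgcttttc
Each guide pairs over 22 bases with a single site in the coding sequence of the transcript Setdb1-201. The shSetdb1.4 site is in exon 16 (chr3:95327805-95327826 in GRCm38) and the shSetdb1.6 site is in exon 5 (chr3:95348003-95348024). RefSeq promoter windows of GRCm38.p6, from 250 bases before to 50 bases after the gene start, were found for 3 of the 6 members, and capitals mark CpG. The Xlr3a window is chrX:73097046-73097345 on the minus strand, the Xlr3b window is chrX:73191929-73192228 on the plus strand, and the Rhox5 window is chrX:37754358-37754657 on the plus strand.
Xlr3a: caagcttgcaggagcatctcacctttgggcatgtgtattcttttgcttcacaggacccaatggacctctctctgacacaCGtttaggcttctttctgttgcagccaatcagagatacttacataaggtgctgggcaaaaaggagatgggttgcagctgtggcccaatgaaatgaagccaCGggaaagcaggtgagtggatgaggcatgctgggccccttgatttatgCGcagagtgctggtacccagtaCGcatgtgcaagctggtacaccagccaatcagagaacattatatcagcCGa
Xlr3b: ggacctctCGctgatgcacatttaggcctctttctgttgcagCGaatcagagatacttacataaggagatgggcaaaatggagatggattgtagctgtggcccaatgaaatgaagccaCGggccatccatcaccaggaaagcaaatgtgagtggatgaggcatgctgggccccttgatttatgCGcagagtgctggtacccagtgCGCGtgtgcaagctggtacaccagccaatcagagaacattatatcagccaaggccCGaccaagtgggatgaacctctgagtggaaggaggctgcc
Rhox5: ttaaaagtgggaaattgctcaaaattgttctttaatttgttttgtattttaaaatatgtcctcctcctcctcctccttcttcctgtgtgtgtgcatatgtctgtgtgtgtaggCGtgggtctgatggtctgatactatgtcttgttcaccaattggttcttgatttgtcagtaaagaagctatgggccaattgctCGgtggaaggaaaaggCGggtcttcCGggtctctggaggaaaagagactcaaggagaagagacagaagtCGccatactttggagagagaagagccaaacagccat
These windows hold 5, 7 and 5 CpG for Xlr3a, Xlr3b and Rhox5, and the median over 32851 promoter windows of the same length was 7. The Xlr3a and Xlr3b windows were identical at 223 of 254 aligned positions (87.8%). None of the 3 windows holds the E-box CACGTG, which 7.15% of all windows hold, or the letters TCCCGC or their reverse complement, which 20.0% hold. The Rhox5 window ends 50.2 kb before the Rhox5 interval of the deposited table, so the table does not count reads at this start. Promoters of Tex11, Tex15 and Rbm44 are not shown.

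The 12 hairpin libraries held 41.9 to 58.8 M reads, and 3 reads, the most that a count of 0 allows, corresponded to 0.051 to 0.072 RPM. Setdb1 itself (chromosome 3, 95323525 to 95357202) measured 46.25 ± 0.103 RPM (SD, n = 3) in control hairpin cells and fell to 14.06 ± 1.72 RPM where a Setdb1 hairpin was present. All 10 fibroblast markers checked were expressed, with a summed level of 23500 to 37300 RPM across the libraries. Of 15 germ cell markers, 8 were at 0 reads in all 12 libraries, among them Pou5f1, Nanos2, Dppa3, Prm2 and Tnp1. The summed level of the 15 was 1.23 to 1.62 RPM with control hairpins, 1.55 to 1.98 RPM with Setdb1 hairpins, 3.0 to 3.52 RPM with control hairpins and 5-aza, and 5.59 to 6.27 RPM with both. Dazl was the largest part of the sums with 5-aza, at means of 1.716 and 3.686 RPM. Ddx4 had 11 summed reads with control and 28 with Setdb1 hairpins, and 13 and 63 with 5-aza. Sycp3 was at 0.6404 and 0.9062 RPM, and at 0.8424 and 1.235 RPM with 5-aza. Group means of Dnd1 were 0.5309 to 0.5904 RPM. Nanos3 was lower with Setdb1 hairpins, at 6 against 1 summed reads, and 9 against 2 with 5-aza. Zp3 and Prm1 had at most 7 in a group. Of 9 gonadal somatic markers, Cyp17a1 and Fshr were at 0 reads in all libraries, and the sum was 1.4 to 1.64 RPM with control and 1.48 to 1.52 RPM with Setdb1 hairpins, and 2.01 to 2.3 and 2.1 to 2.33 RPM with 5-aza. The sum of 7 epithelial markers was 25.8 to 29.3 RPM with control hairpins, 31.4 to 46.5 RPM with Setdb1 hairpins, 38.8 to 51.5 RPM with control hairpins and 5-aza, and 61.6 to 74.7 RPM with both. That of 6 macrophage markers was 10.2 to 11.2 and 10.1 to 10.9 RPM without and 13.0 to 15.2 and 12.9 to 13.6 RPM with 5-aza, in control and Setdb1 cells. Of 7 trophoblast markers, Tpbpa, Cdx2, Elf5 and Gcm1 were at 0 reads throughout, and the sum was 0.085 to 0.352 RPM in the control groups and Setdb1 group and 0.34 to 0.671 RPM with both. The 5 endothelial markers summed to 2.36 to 5.67 RPM with overlapping groups. Rhox5 thus moved in the same groups as several of these lists, and their part in its values was not tested. In bulk RNA, more cells expressing a gene and more RNA per cell cannot be told apart.

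The members fell into those near the detection limit in control cells (Tex11 and Rbm44), those expressed at a few RPM in all libraries (Tex15, Xlr3a and Xlr3b), and Rhox5, which was low in control cells and moved with 5-aza as well. All 6 were higher in every Setdb1 hairpin library than in any control hairpin library, both without and with 5-aza. Groups of this kind, higher and not overlapping, were seen for 24% of the 13134 genes tested without 5-aza and for 24.6% with it. The choice of the members fixes this direction, and nothing is read from it.

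Tex11 (ENSMUSG00000009670, chromosome X, 100838648 to 101059667, minus strand) encodes a protein needed for crossover formation and chromosome synapsis in spermatocytes. It had 0, 4 and 1 reads in the control hairpin libraries with the luciferase hairpin and with the non-silencing hairpin A and B, and 46, 46 and 60 reads in the Setdb1 hairpin libraries with shSetdb1.6 and with shSetdb1.4 A and B. With 5-aza the control libraries had 2, 3 and 8 reads and the Setdb1 libraries 95, 66 and 70 reads. The 3 control libraries without 5-aza were thus at or close to the limit of detection. The mean was 0.03076 ± 0.0362 RPM with control and 1.028 ± 0.065 RPM with Setdb1 hairpins (SD, n = 3). Reads summed over each group and scaled for depth gave a ratio of 30.7 (95% Clopper-Pearson interval 12.9 to 96.1, counting error only) without 5-aza and 17.3 (9.92 to 33.0) with it. The limma fit gave a log2 fold change of 5.06 (SE 0.52), and 4.35 (SE 0.52) with 5-aza. This fit takes 0 reads as the value of 0.9 read that the table holds.

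Rbm44 (ENSMUSG00000070732, chromosome 1, 91145103 to 91170795, plus strand) was similar in level. Its reads were 10, 4 and 0 in the control hairpin libraries and 63, 44 and 66 in the Setdb1 hairpin libraries. With 5-aza they were 3, 5 and 3 in control and 74, 70 and 60 in Setdb1 libraries. The luciferase library without 5-aza was the highest control library, and it still lay below every Setdb1 library. The mean RPM was 0.09441 ± 0.108 with control and 1.183 ± 0.293 with Setdb1 hairpins, and 0.07523 ± 0.0283 and 1.338 ± 0.125 with 5-aza. The ratio of summed reads was 12.5 (7.25 to 23.3) without and 18.1 (9.88 to 36.8) with 5-aza. The log2 fold changes of the fit were 4.13 and 4.21 (SE 0.64 for both).

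Tex15 (ENSMUSG00000009628, chromosome 8, 33516738 to 33585582, plus strand) was the member with the most reads. It was at 6.503, 5.002 and 5.264 RPM in the control hairpin libraries and at 16.05, 14.98 and 17.32 RPM in the Setdb1 hairpin libraries. With 5-aza it was at 6.219, 5.964 and 5.343 RPM in control and at 18.16, 16.16 and 20.09 RPM in Setdb1 libraries. The lowest Setdb1 library was therefore above the highest control library by a wide margin in both settings. The log2 fold change was 1.53 (SE 0.11, 2.9-fold) without 5-aza and 1.63 (SE 0.11, 3.1-fold) with it.

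Xlr3a (ENSMUSG00000057836, chromosome X, 73086293 to 73097095, minus strand) and Xlr3b (ENSMUSG00000073125, chromosome X, 73192207 to 73202930, plus strand) lie 95.1 kb apart. Xlr3a was at 2.189, 2.51 and 2.179 RPM with control hairpins and at 5.676, 5.639 and 5.184 RPM with Setdb1 hairpins. Xlr3b was at 1.084, 1.326 and 1.079 RPM with control hairpins and at 2.91, 3.072 and 2.855 RPM with Setdb1 hairpins. Both genes were expressed in every control library, and the 3 libraries of each group lay close together. With 5-aza, Xlr3a was at 2.19 ± 0.161 RPM in control and 5.823 ± 0.246 RPM in Setdb1 hairpin cells, and Xlr3b was at 1.345 ± 0.0851 and 3.403 ± 0.222 RPM. For Xlr3a the log2 fold change was 1.26 without and 1.41 with 5-aza (SE 0.09), and for Xlr3b it was 1.35 and 1.34 (SE 0.11). These genes are near copies of each other. Of all stretches of 100 bases, the read length, 47.5% in the longest coding transcript of Xlr3a and 72.6% in that of Xlr3b also occur in transcripts of other genes. How such reads were assigned for this table is not given in the sources used here, and the split of reads between Xlr3a, Xlr3b and Xlr3c is uncertain. Tex11, Tex15, Rbm44 and Rhox5 shared none of their 100-base stretches with transcripts of another gene.

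Rhox5 (ENSMUSG00000095180, chromosome X, 37804851 to 37808764, plus strand), a homeobox gene of Sertoli cells, epididymis and placenta, differed from the other members in its dependence on 5-aza. It was at 0.1913, 0.2474 and 0.151 RPM with control hairpins, which were 9, 14 and 7 reads, and at 0.6917, 0.6944 and 0.5948 RPM with Setdb1 hairpins, which were 29, 33 and 35 reads. With 5-aza it was at 1.306, 2.411 and 1.917 RPM in control and at 4.622, 4.581 and 3.464 RPM in Setdb1 hairpin cells. The 4 groups did not overlap, and their order was control, Setdb1, control with 5-aza, and Setdb1 with 5-aza. The log2 fold change between Setdb1 and control hairpins was 1.77 without and 1.20 with 5-aza (SE 0.24 for both).

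**Figure D1:**
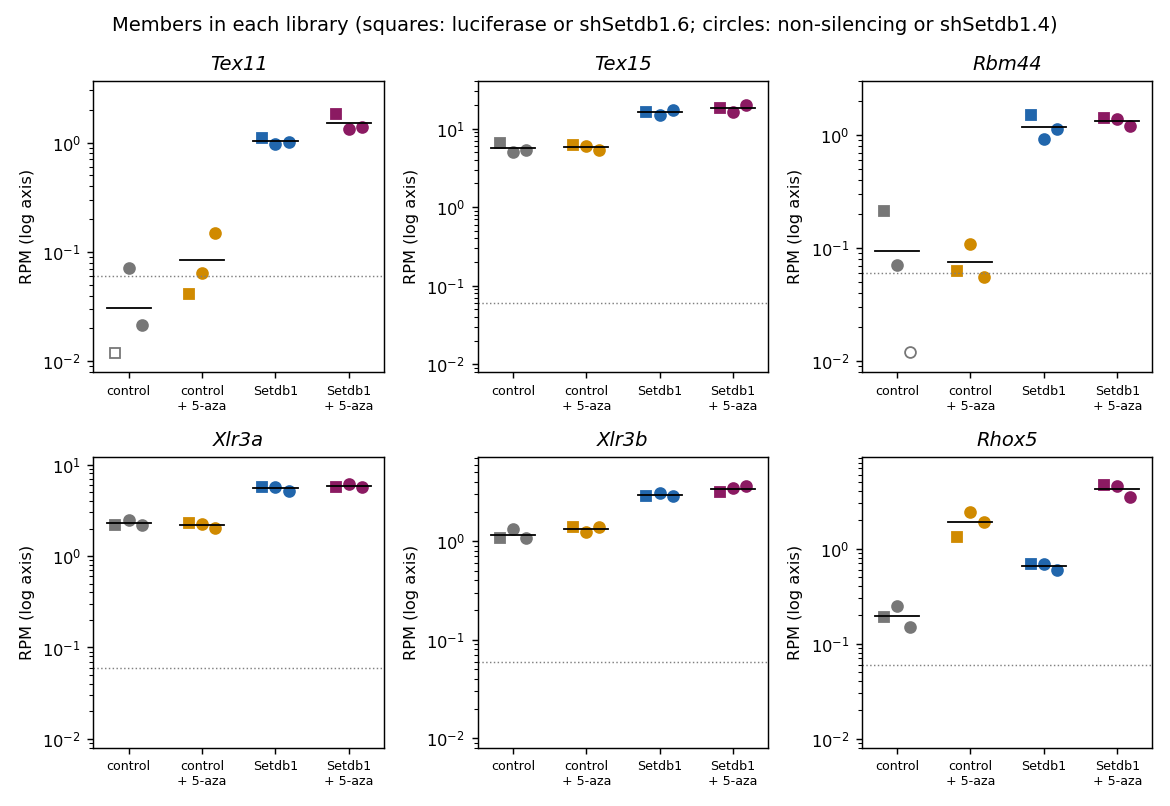
Level of each member in RPM (log axis) in the 12 hairpin libraries, with 3 libraries a group, a black line for the group mean, open symbols at the bottom for libraries with 0 reads and a dotted line at 0.06 RPM, near the value of 3 reads. Squares mark luciferase or shSetdb1.6 libraries and circles non-silencing or shSetdb1.4 libraries, and all 6 members lie higher in the Setdb1 groups, while Rhox5 alone of the 6 is also well above its untreated level in the control group with 5-aza, at 1.306 to 2.411 RPM.

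The effect of 5-aza was not used to choose the members, though the tests share libraries with the comparisons that did. Of the 6 members, 1 was called higher after 5-aza in control hairpin cells, namely Rhox5, while 18.8% of all genes tested were called. Rhox5 rose by a log2 fold change of 3.24 (SE 0.24, 9.45-fold, adjusted p 7.3e-06 by limma with Benjamini-Hochberg adjustment) and was higher in 3 of 3 libraries. In Setdb1 hairpin cells the called member was again Rhox5, where 28.9% of all genes were called. It rose there by 2.67 (SE 0.24, 6.36-fold, adjusted p 5.97e-05). Among all genes tested, these were the rises ranked 7 and 12 by log2 fold change. Rhox5 reached 1 RPM only in libraries with 5-aza, so passing the filter already required high values there. Nothing is therefore read from its ranks or from the count of called members. Both calls of Rhox5 held in the fit with no filter.

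The other 5 members were not called in either test of 5-aza. In control hairpin cells Xlr3a had a log2 fold change of -0.07 (95% interval -0.25 to 0.12, adjusted p 0.632), Tex15 of 0.07 (-0.17 to 0.31, adjusted p 0.687) and Xlr3b of 0.22 (-0.02 to 0.45, adjusted p 0.18). The intervals of these 3 genes reach no further than 0.45 from 0 on the log2 scale. Rbm44, at 0.12 (-1.28 to 1.52, adjusted p 0.921), had too few reads for a change of that size to be detectable. Tex11 had 1.26 (0.13 to 2.39, adjusted p 0.108) on 5 against 13 summed reads, and it was called without the non-silencing library A, at 1.86 with an adjusted p of 0.0249 by limma. In Setdb1 hairpin cells Tex15 had a log2 fold change of 0.17 (-0.07 to 0.4, adjusted p 0.262), Xlr3a of 0.08 (-0.11 to 0.27, adjusted p 0.489), Xlr3b of 0.21 (-0.03 to 0.44, adjusted p 0.164) and Rbm44 of 0.20 (-1.2 to 1.61, adjusted p 0.836).

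Tex11 and Xlr3b were higher in all 3 Setdb1 libraries with 5-aza than in any without it, as were 31.2% of all genes tested. Tex11 went from 0.968 to 1.097 RPM without 5-aza to 1.32 to 1.822 RPM with it, and its summed reads gave a ratio of 1.48 (1.2 to 1.83, counting error only). In the limma fit Tex11 had 0.54 (SE 0.52, adjusted p 0.447), and on the log2(RPM + 1) scale it was 0.30 with an adjusted p of 0.0175, so this call depended on the pseudocount.

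The interaction asked whether 5-aza changed a member by a different factor in Setdb1 than in control hairpin cells. No member was called, and 0.388% of all genes tested were. Rhox5 had an interaction of -0.57 (95% interval -1.3 to 0.15, adjusted p 0.794), which covers the same fold change in both cells. In RPM, 5-aza added 1.68 to the mean of Rhox5 in control hairpin cells and 3.56 where Setdb1 was depleted, and on the log2(RPM + 1) scale the interaction was 0.40 (adjusted p 0.791). The direction of this term thus depended on the scale. The terms of Tex15, Xlr3a and Xlr3b lay at 0.10, 0.15 and -0.01, and all their interval bounds lay between -0.34 and 0.43. Those of Tex11 at -0.71 (-2.31 to 0.89) and Rbm44 at 0.08 (-1.9 to 2.07) were too wide to be informative.

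**Figure D2:**
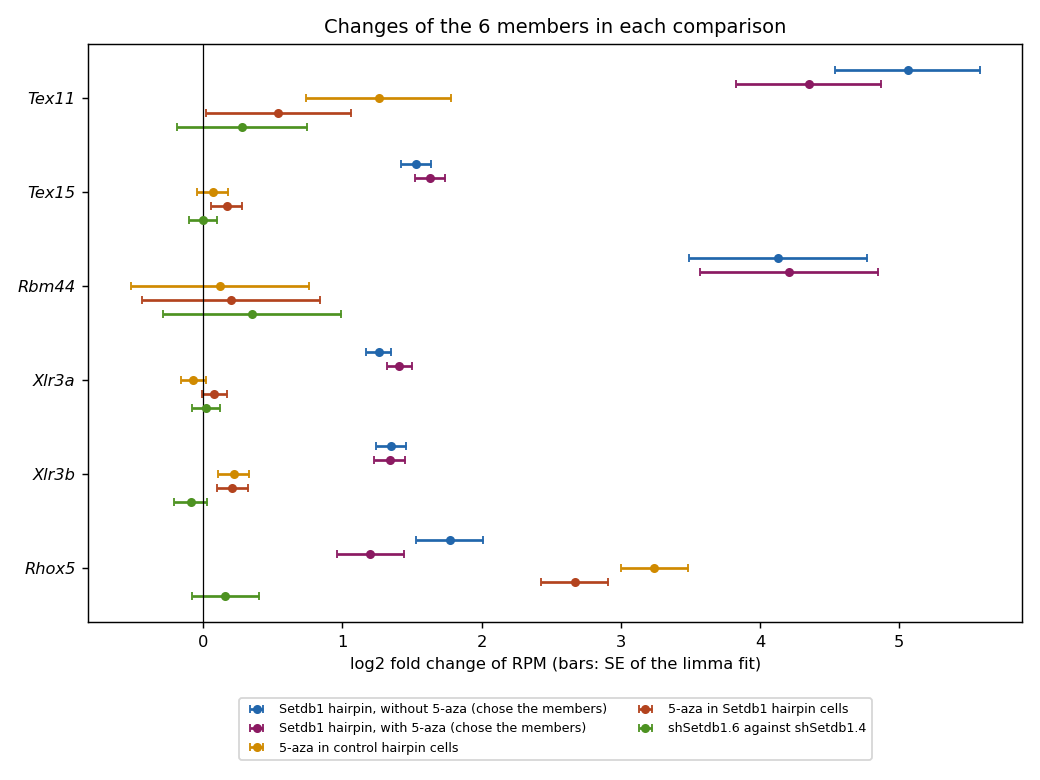
Log2 fold change of RPM of the 6 members in 5 comparisons, with bars for the standard error of the limma fit and a line at 0. The Setdb1 comparisons, which chose the members, lie to the right for all 6, and Rhox5 alone lies far to the right in the 5-aza comparisons, at 3.24 and 2.67.

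The hairpins against Setdb1 were compared with each other over both 5-aza settings, with 2 shSetdb1.6 and 4 shSetdb1.4 libraries. By the hairpin and letter in the labels, these were 1 culture of shSetdb1.6 and 2 of shSetdb1.4, each without and with 5-aza. The fit took the libraries as independent, so its p-values and intervals do not measure the spread between cultures. Setdb1 transcript was lower with shSetdb1.6, at 26.2% of the control mean against 33.2% and 31.8% with shSetdb1.4, and at 24.1% against 33.5% and 31.6% with 5-aza. This log2 difference was -0.37 (SE 0.05, adjusted p 0.0299 by limma). No member was called in this comparison, and 0.0305% of all genes tested were, which is 4 genes, with 1835 at an unadjusted p under 0.05. Tex15 differed by 0.00 (95% interval -0.21 to 0.22), Xlr3a by 0.02 (-0.2 to 0.23), Xlr3b by -0.09 (-0.35 to 0.17) and Rhox5 by 0.16 (-0.37 to 0.69) on the log2 scale. The intervals of Tex11, from -0.75 to 1.32, and Rbm44, from -1.07 to 1.76, allow differences of more than 1 log2 unit. No difference between the hairpins was detectable for a member.

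Between the control hairpins, luciferase and non-silencing, no member was called either, where 0.00761% of all genes tested (1 gene, with 2507 at an unadjusted p under 0.05) were called. The difference was 0.24 for Tex15 (0.03 to 0.46, adjusted p 0.227) and at most 0.37 in size for Xlr3a, Xlr3b and Rhox5. For Tex11 it was -1.14 (adjusted p 0.233) and for Rbm44 1.10 (adjusted p 0.361), both on few reads.

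The genes around the members were looked at next, within 250 kb on either side. For Xlr3a and Xlr3b together there were 23 other genes in the table, of which 9 had no read in the 12 hairpin libraries. The 5 genes that passed the filter, Cetn2, Nsdhl, F8a, Zfp275 and Haus7, were not called between Setdb1 and control hairpins without 5-aza, where 12.4% of all genes tested were. With 5-aza, Nsdhl, an enzyme of cholesterol synthesis, was called lower at -0.28 (SE 0.06, adjusted p 0.00807). With no filter, 4 of 14 neighbours were called, all higher, and 7.78% of the 19319 genes in that fit were called. These were Pnma5, a gene of the paraneoplastic antigen family, and the Xlr family members Xlr4a, Xlr4b and Xlr3c.

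Pnma5 ends 49.2 kb before the Xlr3a interval begins and had 0 reads in all 6 control hairpin libraries. It had 12 to 25 reads in the Setdb1 libraries without 5-aza and 10 to 22 with it. With the control group set at 3 reads, its level was 16.5-fold higher without and 15.9-fold higher with 5-aza (adjusted p 1.18e-05 and 1.13e-05 by limma). These ratios leave out the counting error of the Setdb1 reads. Xlr4a was at 0.2247 ± 0.0872 RPM with control and 0.7493 ± 0.106 RPM with Setdb1 hairpins, a log2 fold change of 1.8 (SE 0.33, adjusted p 0.0076), and of 2.14 (adjusted p 0.00206) with 5-aza. Xlr4b, with 10 against 39 summed reads, rose by 2.44 (SE 0.62, adjusted p 0.035), and with 5-aza it had 1.93 (adjusted p 0.0629), which was called with weights from the reads (adjusted p 0.0232 by voom). Xlr3c, with 14 against 37 summed reads, rose by 1.4 (SE 0.34, adjusted p 0.0282), was not called on the log2(RPM + 1) scale (adjusted p 0.0513), and had 0.58 (adjusted p 0.297) with 5-aza. With 5-aza, 13.4% of the genes in the fit with no filter were called. Stretches of 100 bases shared with other genes made up 45.5% of the Xlr4a, 52.8% of the Xlr4b and 46.7% of the Xlr3c transcript. Xlr3c shared them with Xlr3a and Xlr3b, so reads of Xlr3c and of these members are not independent. Xlr4a shared most of them with Xlr4b and Xlr4c and a smaller part with Xlr3b. Xlr4b shared them with other Xlr4 copies and with no Xlr3 gene, so reads of Xlr4a and Xlr4b are not independent of each other. Pnma5 shared 19.5%, all with Pnma3, which had no read. Between the called genes, Pnma3, Xlr5a and Xlr5b had no reads and Xlr4c had at most 1.

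**Figure D3:**
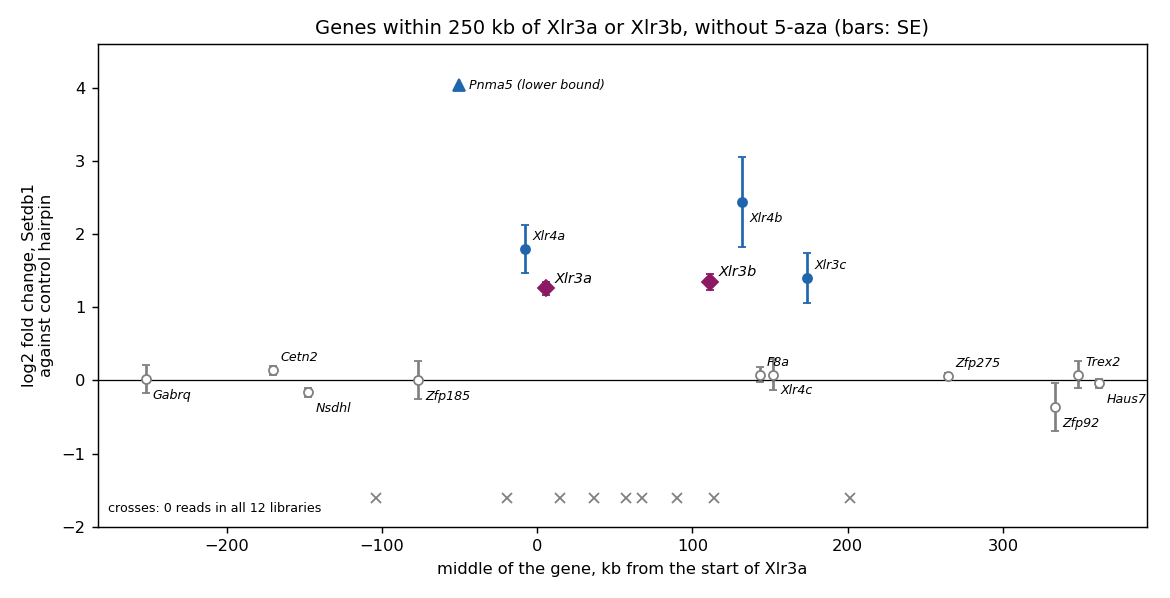
Log2 fold change between Setdb1 and control hairpin cells without 5-aza for the genes within 250 kb of Xlr3a or Xlr3b, by distance of the middle of the gene from the start of Xlr3a in kb, with bars for the standard error. Diamonds are the members, filled circles are called neighbours, open circles are neighbours not called, and crosses are genes with 0 reads. The triangle, labelled lower bound, is Pnma5 with the control group set at 3 reads and the counting error of its Setdb1 reads left out. Called genes stand among genes near 0, such as F8a at 0.08 and Zfp275 at 0.06, and among genes with no read.

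Around the other members, calls without 5-aza were 1 of 9, 2 of 7 and 1 of 10 tested neighbours of Tex11, Tex15 and Rbm44, beside 12.4% of all genes tested. Rhox5 had 15 neighbours, all but Rhox9, Rhox6 and 3 Rhox2 genes at 0 reads, and none passed the filter. Rhox6 had 0 reads in all libraries without 5-aza, 4 summed reads in control and 10 in Setdb1 hairpin cells with 5-aza. Of 9 tested neighbours of Tex11, Kif4, a mitotic kinesin, was called higher (log2 fold change 0.42, SE 0.09, adjusted p 0.012), and the nearest tested genes on each side, Dlg3 and Slc7a3, were not called, at 0.04 and 0.15. Of 7 around Tex15, the glutathione reductase Gsr was called at 0.50 (SE 0.05, adjusted p 8.48e-05) and Gtf2e2, a subunit of a general transcription factor, at 0.20 (SE 0.06, adjusted p 0.049), a call that the fit with no filter did not make (adjusted p 0.0622). Of 10 around Rbm44, Fam132b, the gene of the hormone erythroferrone, was called at 1.20 (SE 0.19, adjusted p 0.00189). With 5-aza, where 19.9% of all genes were called, Kif4, Gsr and Fam132b were called higher again, Ppp2cb was called higher at 0.17, and Il2rg and Scly were called lower at -0.58 and -0.21.

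The members were then set beside fixed lists of relatives and of germline genes, without the members. Of 18 other genes in the table from the list of Xlr genes and their relative Sycp3, 12 had no read. Sycp3 was the 1 that passed the filter, reaching 1 RPM in Setdb1 hairpin libraries only, and it was not called. With no filter 4 of 6 genes, Sycp3 being among the 6, were called higher with Setdb1 hairpins without 5-aza. With 5-aza 1 of 6, Xlr4a, was called higher. In these comparisons 7.78% and 13.4% of all genes were called. The fourth, beside the neighbours above, was Xlr, which lies outside the Xlr3 interval. It was at 0.1308 ± 0.0618 RPM with control and 0.6363 ± 0.0806 RPM with Setdb1 hairpins, a log2 fold change of 2.39 (SE 0.33, adjusted p 0.00145). It also rose with 5-aza in control hairpin cells, by 2.26 (SE 0.33, adjusted p 0.00167), as Rhox5 did, where 12.5% of the genes in the fit with no filter were called for 5-aza in these cells. Of 29 other Rhox genes, 19 had no read and none passed the filter. Rhox2a had 0 reads in every library without 5-aza and 3 to 8 reads in each library with it. With the untreated group set at 3 reads, it was 5.05-fold higher in control and 4.54-fold higher in Setdb1 hairpin cells. These ratios leave out the counting error of the reads with 5-aza. Rhox9 was called higher than in control hairpin cells with 5-aza, with no filter, on 2 reads in each Setdb1 library with 5-aza, which is within the limit of a count of 0.

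Of 29 genes of the meiotic chromosome axis and recombination, 7 were tested, and 2 were called higher and none lower with Setdb1 hairpins, both without and with 5-aza, with a median log2 fold change of 0.42 and 0.51 against 0.031 and 0.047 over all genes, of which 12.4% and 19.9% were called. These were Stag3, a meiotic cohesin subunit, and Syce2, a synaptonemal complex protein. Both also reached 1 RPM in control hairpin libraries with 5-aza. The filter can admit low genes through the Setdb1 libraries where they are high, so nothing is read from the medians. Stag3 rose from 0.8281 ± 0.0717 to 2.465 ± 0.164 RPM without 5-aza (log2 fold change 1.58, SE 0.10, adjusted p 1.81e-06). Syce2 rose from 1.533 ± 0.24 to 3.53 ± 0.208 RPM (1.21, SE 0.17, adjusted p 0.000731). With no filter, 4 of 24 were called higher, and the added genes were Ccdc36 and Syce1. Ccdc36, a factor of meiotic double-strand break formation, had 12 summed reads in control and 73 in Setdb1 hairpin cells. Syce2 was close to Tex15 and the Xlr3 genes in not being called after 5-aza: its mean without and with the drug was 1.533 and 1.524 RPM among controls, and 3.53 and 3.482 RPM among Setdb1 hairpin libraries.

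Of 22 genes of the germline piRNA pathway and genome defence, 5 were tested. Of these, 2 were called higher and none lower with Setdb1 hairpins, both without and with 5-aza, where 12.4% and 19.9% of all genes were called. The median log2 fold change of the 5 was 0.50 without and 1.11 with 5-aza, against 0.031 and 0.047 over all genes. Both called genes reached 1 RPM in Setdb1 hairpin libraries only, so passing the filter already required the rise. The count and the medians include them, and nothing is read from these for the pathway. These were Tdrd9, a helicase of the piRNA pathway, and Tex19.1, a factor that limits retrotransposons in germ cells. Tdrd9 rose from 0.08067 ± 0.00866 to 1.042 ± 0.16 RPM (3.69, SE 0.31, adjusted p 4.27e-05 by limma with no filter). Tex19.1 had 0 reads in every control library without 5-aza and 9 to 17 in the Setdb1 libraries. This was 12.5-fold higher with the control group set at 3 reads and the counting error of the Setdb1 reads left out (adjusted p 6.36e-06 by limma with no filter). With no filter, 5 of 21 were called higher without 5-aza, and 10 higher and 1 lower with it, where 7.78% and 13.4% of all genes in that fit were called. Stk31 and Mael were likewise at 0 reads in all control libraries without 5-aza. The list of other Tex genes shares only its naming with Tex11 and Tex15. Of its 6 tested genes, 2 were called higher without 5-aza, Tex19.1 and Tex10, where 12.4% of all genes were called. Tex10 rose by 0.17 (SE 0.05, adjusted p 0.0346 by limma). Tex19.1 was tested only because of its values in Setdb1 hairpin libraries, so nothing is read from this count. The median of the list was 0.03, near that of all genes. Of 28 X-linked spermatogonial genes, 18 had no read, none passed the filter, and with no filter none of 10 was called without 5-aza. With 5-aza and no filter, Taf7l was called higher and Nxf3 lower in Setdb1 than in control hairpin cells. Taf7l had 36 summed reads in control and 137 in Setdb1 hairpin cells. Nxf3 had 13 and 3, near the limit of detection.

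Dazl, an RNA-binding protein of germ cells and 1 of the piRNA list and of the germ cell markers, was near the detection limit without 5-aza in both kinds of cell. It had 5 summed reads in control and 6 in Setdb1 hairpin libraries, and 253 and 561 with 5-aza. A difference of Dazl between Setdb1 and control hairpins was not detectable without 5-aza. With 5-aza it was at 3.433 to 4.161 RPM in Setdb1 and 1.433 to 1.928 RPM in control hairpin libraries, which did not overlap.

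**Figure D4:**
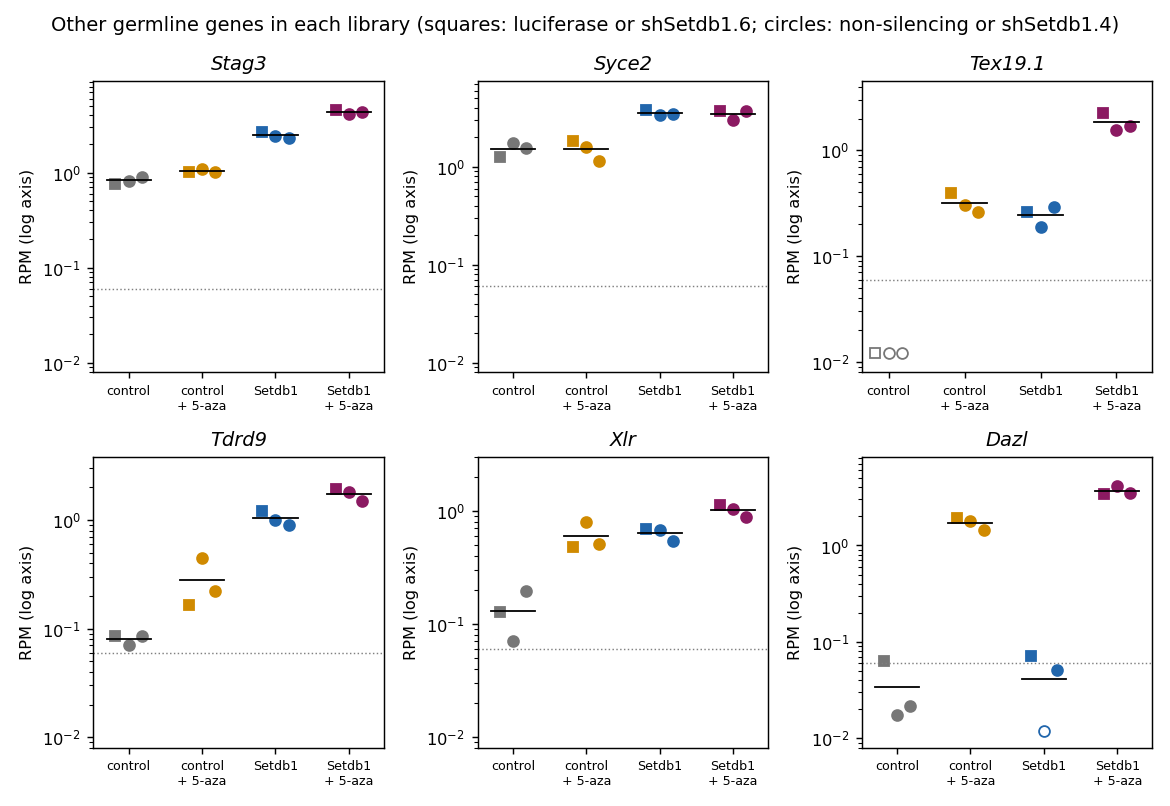
Level of 6 listed germline genes that are not members, in RPM (log axis) in the 12 hairpin libraries, with symbols, lines and the dotted line as for the members and open symbols for 0 reads. Syce2 follows the hairpin and not 5-aza, and Stag3, Tex19.1, Tdrd9, Xlr and Dazl are higher in the group with both than in either alone, Dazl being near 0 without 5-aza.

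The members resembled each other in their levels over the 12 libraries, which include the comparison that chose them. Pearson's r of log2 RPM was 0.895 to 0.98 among Tex11, Tex15, Rbm44, Xlr3a and Xlr3b, and 0.446 to 0.609 between Rhox5 and these. These values are a description, since the points share libraries and the choice. The tested genes most like Tex15 were Zfp37, a KRAB zinc finger gene (r = 0.99), the noncoding 2610507I01Rik (0.988) and Rnf17, a Tudor-domain gene of male germ cells (0.985). Zfp37 was also the gene most like Xlr3a (0.988). Rnf17 was at 0.4508 ± 0.0541 RPM with control and 1.915 ± 0.0195 RPM with Setdb1 hairpins. Tex11 was most like Nt5e, an ectonucleotidase (0.984), Rbm44 most like 4931414P19Rik (0.971), and Xlr3b most like A930015D03Rik (0.989). The genes most like Rhox5 were Mndal, an interferon-inducible gene (0.979), Unc93b1, which traffics nucleic-acid-sensing Toll-like receptors (0.978), and Steap3, a metalloreductase (0.978). Of the 3 genes most like each member, Rps6ka6, ranked 2 for Xlr3a (0.983), was the one on the same chromosome as its member, the X.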

How the data were processed

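Poly(A) RNA-seq of 13 mouse fibroblast libraries was read from 1 deposited table of log2 RPM per gene, which the authors made from reads (the labels name CASAVA 1.4 and mm10, while the aligner and counting rule for this table are not given in the sources used here; the study names TopHat and mm9 for its allele counts on chromosome X only). In each library 100% of values above the lowest were whole multiples of 1 read (tolerance 0.001 read), and 0 reads were stored as 0.9 read, so reads and totals were recovered from these steps. Fold changes are on the deposited log2 scale with no pseudocount added.

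The 12 hairpin libraries entered 1 linear model (limma 3.58.1, run under R 4.3.3, with a trended prior variance), with the group as term, or hairpin and 5-aza for hairpin against hairpin. The filter of 1 RPM in 3 or more libraries left 13134 genes. P-values are two-sided and Benjamini-Hochberg adjusted, with calls at 0.05. The fit was tested on simulated data. Counting intervals are exact; they leave out PCR duplication and the spread between libraries. Python 3.11.15, pandas 2.3.3, scipy 1.17.1, biopython 1.88 and matplotlib 3.10.9 were used for the rest.

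The members, the lists and the tests were chosen with earlier results of these data known. Named genes were the members and Setdb1, for each list and comparison up to 3 called genes with the largest change and no overlap between groups, the 3 genes most correlated with each member (of which some are named), and called neighbours within 250 kb. Genes under 1 RPM were named from the fit with no filter, a use chosen after seeing the data, as were Rhox2a, Rhox6, Rhox9, Dazl and the genes at 0 reads. Of the X-linked list, 4 entries were dropped because the table places them on autosomes. Libraries of the same hairpin and letter, without and with 5-aza, deviated together in Setdb1 hairpin cells (correlation of deviations from the group means 0.413 to 0.634). In control hairpin cells the values were 0.1 to 0.586, not all over 0.1. Control and Setdb1 libraries of the same letter or number had 0.484, 0.686 and -0.02 with 5-aza, and 0.098, 0.19 and -0.47 without it. These correlations therefore do not show which libraries share a culture, and the pairing rests on the labels. The reported tests have no block, which was run as an alternative. The library with no named hairpin was put in no group. Alternatives were log2(RPM + 1), no filter, at least 5 RPM, median centring, quantile normalization, voom on recovered reads, each library left out and a replicate block.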

Additional observations from a re-analysis of the deposited data

Results flagged for a closer look

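Rhox5 was at 5.84 RPM (119 reads of 20.4 M) in the library given 5-aza with no named hairpin, which the labels put in no group and which entered no comparison. This was above all 3 control hairpin libraries with 5-aza, at 1.306 to 2.411 RPM, and all 3 Setdb1 hairpin libraries with 5-aza, at 3.464 to 4.622 RPM. The difference was not tested, since there is 1 such library. Its name in the labels refers to PGK, and whether its cells had the genotype of the hairpin libraries is not given in the sources used here. No other member was above the range of the 6 control hairpin libraries in it, and no member was called in the interaction of hairpin and 5-aza. Groups of 3 were not tested for outlying libraries.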

How the results depend on the processing

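The 6 members were higher with Setdb1 hairpins in all 220 values that the alternatives gave. The choice of the members fixes this direction, and nothing is read from it. At 5 RPM only Tex15 and Xlr3a remained to be tested. Under quantile normalization the differences without 5-aza were 3.15 for Tex11, 2.90 for Rbm44 and 1.08 for Rhox5, and on the log2(RPM + 1) scale 0.98 for Tex11 and 0.47 for Rhox5. Both calls of Rhox5 after 5-aza held under each alternative but the 5 RPM filter, which Rhox5 did not pass. Of 550 values of members in the tested comparisons, 504 kept direction and side of the threshold, 44 changed sign and 2 became called, those of Tex11 given above. The cause was not tested.

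Quantile normalization turned the 5-aza difference in control hairpin cells to -0.41 for Tex11, -0.02 for Tex15 and -0.84 for Rbm44, and that of Xlr3a in Setdb1 hairpin cells to -0.03. It turned the interaction to 0.80 for Tex11, 0.06 for Xlr3b and 0.10 for Rhox5, the hairpin difference of Tex15 to -0.02 and the luciferase difference of Xlr3a to -0.01. On log2(RPM + 1), Rbm44 had -0.02 for 5-aza in control hairpin cells, and the interaction was 0.23 for Tex11, 0.04 for Xlr3b and 0.40 for Rhox5. Voom gave an interaction of -0.30 for Rbm44 and 0.00 for Xlr3b. Median centring gave -0.02 for Tex15 and 0.00 for Xlr3a between the Setdb1 hairpins, and -0.01 for Xlr3a between the control hairpins.

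The replicate block changed no call of a member. With it, 3902 in place of 2471 genes were called for 5-aza in control hairpin cells, 5276 in place of 3792 in Setdb1 hairpin cells, 169 in place of 51 for the interaction, and 2388 in place of 1630 and 3751 in place of 2609 for the Setdb1 comparisons. Rhox5 had an adjusted p of 2.17e-06 and 5.54e-06 for 5-aza in the blocked limma fit. At 5 RPM the interaction had 19 genes, with no filter the Setdb1 hairpins differed in 1, and the control hairpins in 3 with median centring and 2 with quantile normalization.

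Leaving out 1 library at a time gave 721 to 1832 genes for Setdb1 without 5-aza (lowest without shSetdb1.6; 839 without luciferase and 981 without non-silencing A), and 1279 to 3428 with 5-aza (lowest without shSetdb1.6; 1409 without shSetdb1.4 B, 1621 without non-silencing A and 1503 without non-silencing B). It gave 1260 to 2718 for 5-aza in control hairpin cells (lowest without untreated non-silencing B; 1472 without untreated A and 1541 without treated B), and 2191 to 4193 in Setdb1 hairpin cells (lowest without treated shSetdb1.4 B; 2214 without untreated A). The interaction had 29 to 43 (29 without treated shSetdb1.4 B, 30 without treated non-silencing B and 33 without untreated luciferase). The control hairpins had 1 to 55 (55 without untreated shSetdb1.4 B and 20 without A; 3 and 2 without treated B and A) and the Setdb1 hairpins 0 to 6 (0 without either shSetdb1.6 library, untreated shSetdb1.4 A, or any control library but treated non-silencing A; 2 without treated shSetdb1.4 A). Uncalled values of members that changed sign ranged, for 5-aza in control hairpin cells, from -0.77 to 0.96 for Rbm44, -0.01 to 0.18 for Tex15 and -0.11 to 0.00 for Xlr3a. For the interaction they ranged from -0.76 to 0.97 for Rbm44, -0.02 to 0.18 for Tex15 and -0.11 to 0.04 for Xlr3b. Between the Setdb1 hairpins they ranged from -0.07 to 0.07 for Tex15 and -0.03 to 0.07 for Xlr3a, and between the control hairpins from -0.32 to 2.52 for Rbm44, -0.10 to 0.13 for Xlr3a and -0.14 to 0.10 for Xlr3b. Depth limits Tex11 and Rbm44, with at most 14 summed reads in a control group.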

Other observations

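Where 5-aza was given and the labels name no hairpin (1 library), Tex11 and Rbm44 had 0 reads, where 3 reads would be 0.147 RPM. Tex15 was at 5.004 RPM, Xlr3a at 2.011 RPM and Xlr3b at 1.03 RPM, which are 102, 41 and 21 reads. Setdb1 was at 47.04 RPM. For Tex15, Xlr3a and Xlr3b these values lay below every Setdb1 hairpin library, and Rhox5 was the member that lay above.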
